A study of Drosophila melanogaster with 6 samples.

Results

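Hemocytes are the blood cells of *Drosophila*, and their marker genes were followed here in fat bodies of *delg* mutant and control larvae. The 10 genes were *Hml*, *He*, *NimC1*, *NimC2*, *eater*, *Sr-CI*, *Nplp2*, *srp*, *lz* and *Pxn*. All 10 were found by symbol on the array, out of 11982 named genes, and they are read by 11 of 18769 probe sets, with 2 for *Pxn* and 1 for each other gene. The choice of genes used no signal of these arrays, although earlier results of the data were known when it was made.

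The fat body is the main storage and metabolic organ of the larva. The mutant larvae were delg613/Df(3R)ro80b, and the controls were +/Df(3R)ro80b, so that every animal of both groups carried 1 copy of the deletion and the controls had 1 wild type copy of *delg*. delg613 is a stop codon allele of *delg* (Ets97D), the fly homologue of the alpha subunit of the mammalian transcription factor NRF-2/GABP. Each group has 3 biological samples with 1 array each, a sample pools 60 fat bodies, and every label states 6 days of age. In the study the larvae of the arrays are called late L3 or wandering. Since the study took mutants of a given stage at a later age than controls in other experiments, a difference in stage within this period and the genotype cannot be told apart.

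Most larval hemocytes are plasmatocytes, macrophages that carry receptors for bacteria and dead cells and secrete matrix. Crystal cells hold the prophenoloxidases of melanisation, and lamellocytes, which are rare without parasites, wrap large invaders. Larval hemocytes float in the hemolymph, sit in patches under the cuticle or form in the lymph gland, and they also adhere to the fat body. Some of the marker genes are not limited to these cells, since srp, a GATA factor, is needed for both the blood and the fat body lineage.

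The values are linear array signals, scaled by the authors to the same trimmed mean of 500 on each array, with array medians of 55.5 to 75.5. Log2 signals were compared with limma over all probe sets, with Benjamini-Hochberg adjustment and a threshold of 0.05. The fat body markers *Lsp2*, *Fbp2*, *apolpp* and *ppl* were bright on all arrays, between 16301 and 75546. Control replicate 2 stood apart: its summed signal of 6 salivary glue genes was 281, against 196915 to 239947 in the mutant samples and 202121 and 314596 in the other controls, and its signal of the fat body gene *Fbp1* was 1103, against 40320 to 65884 on the other arrays. The summed signal of 3 muscle genes was 92.5 to 200 in the mutant samples and 375 to 552 in the controls (*Mlc1* with the smallest p, log2 fold change -2.15, adjusted p = 0.0527 from limma). In the other muscle genes, *Mlc2* and *up*, the groups overlapped. The sum of 4 gonad genes was 158 to 205 in the mutant samples and 233 to 325 in the controls (*aly* with the smallest p, at -1.61, adjusted p = 0.154 from limma). The groups overlapped in *vas* (0.52) and *zpg* (-0.42), and every mutant sample lay below every control in *bam* and *aly*. The sum of 3 nervous system genes overlapped between the groups (48.6 to 107 in the mutant samples and 56.9 to 85.9 in the controls). In the fat body, salivary gland and nervous system lists no gene passed either, and *Fbp1* (1.47, adjusted p = 0.641), *Sgs7* (3.66, adjusted p = 0.475) and *nSyb* (-0.59, adjusted p = 0.764) had the smallest p from limma. Without control replicate 2 these became -0.46 for *Fbp1* and 0.29 for *Sgs7*, the median of the 6 glue genes was -0.03 in place of 3.62, and *Sgs1* was called lower (-1.75, adjusted p = 0.00828 from limma). The part of these tissues and of control replicate 2 in the results below was not tested, other than by leaving that array out. The *delg* probe set itself gave 71.7, 87.1 and 91.9 in the mutant samples and 135, 122 and 213 in the controls (log2 fold change -0.87, adjusted p = 0.267 from limma), which does not check the labels, as a stop codon need not remove the transcript.

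In 8 of the 10 marker genes every mutant sample lay above every control sample, in *Nplp2* every mutant sample lay below, and only in *lz* did the groups overlap. Over all genes, 14.5% had every mutant sample above and 15.6% every mutant sample below the controls. At an adjusted p under 0.05 from limma *eater* and *Pxn* rose and *Nplp2* fell, 3 of 10 genes, against 8.20% of all genes (4.45% higher and 3.75% lower). The median log2 fold change of the 10 genes was 1.50, against -0.09 for all genes. At an unadjusted p under 0.05 there were 7 genes higher and 1 lower, 8 of 10, against 23.0% of all genes. By the methods' t-test, with equal variances, 5 of the 10 genes had an unadjusted p under 0.05 (20.7% of all genes) and 0 passed after adjustment (2.04% of all genes). In 8 genes the log2 fold change was at least 1 (12.4% of all genes), and in 1 it was -1 or less (15.2% of all genes). With each array centred on its median, 3 genes were called higher and 1 lower (5.73% and 2.40% of all genes). In such tissue samples a different number of hemocytes, a different amount of RNA per hemocyte and RNA from other cells of the sample cannot be told apart. The highest signals of *NimC2* and *Nplp2* were 24872 and 39208, against 1030 for *Hml* and 20456 for the fat body marker *ppl*. Which cells gave these signals was not tested. The smallest p of an exact permutation test over 3 mutant and 3 control samples is 0.1, so limma's test was used.

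**Figure D1:**
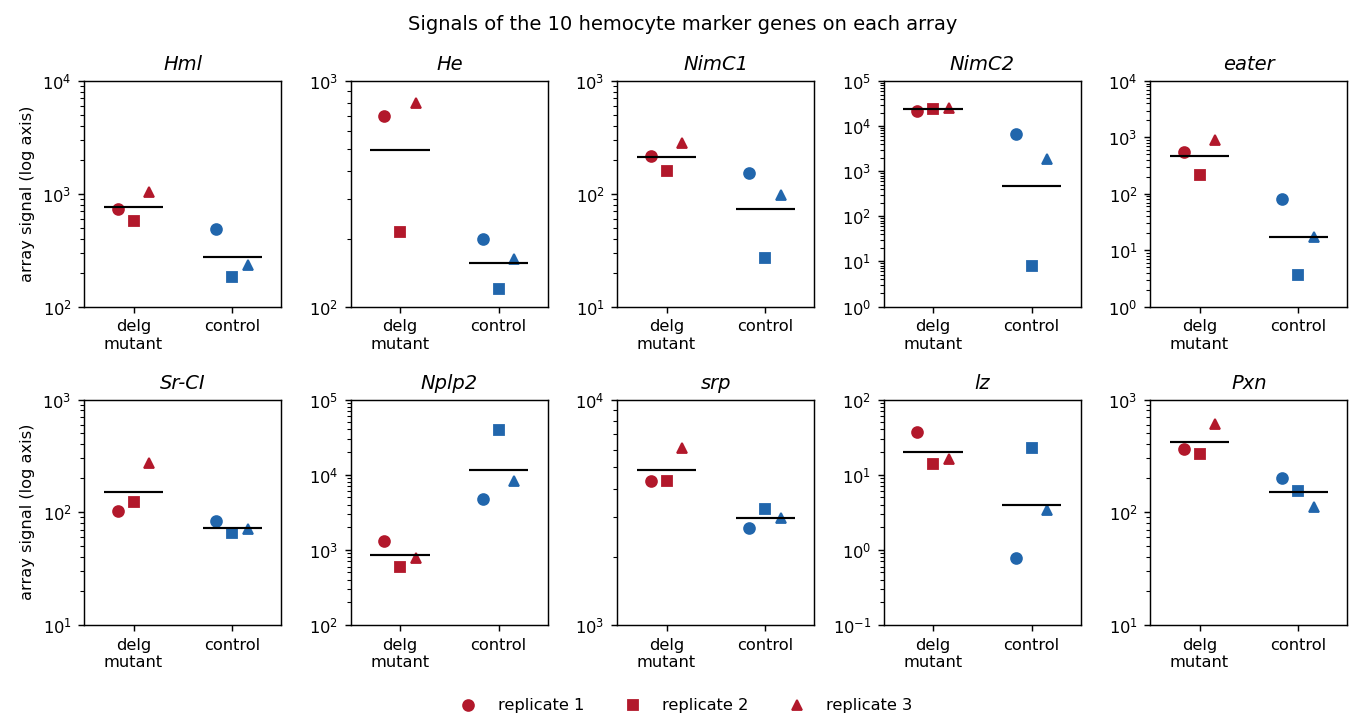
Array signals (log axes that differ between panels) of the 10 hemocyte marker genes in the *delg* mutant and in the control, with 1 point for each sample and a line at the mean of the log2 signals. All mutant points lie above all control points in 8 genes and below them in *Nplp2*, and control replicate 2 is far below the others in *NimC2* (7.92).

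eater is a receptor with many EGF-like repeats through which plasmatocytes bind and take up bacteria and adhere to tissue. Its signals were 541, 213 and 900 in the mutant samples and 79.2, 3.62 and 17.0 in the controls. The lowest mutant signal was above the highest control signal, and 2 of the controls lay below the median of their array. *eater* rose by a log2 fold change of 4.79 (standard error 1.06, 95% interval 2.38 to 7.21, adjusted p = 0.0340 from limma). Its mean was 551 ± 343 in the mutant and 33.3 ± 40.3 in the control (SD, n = 3 each). Without control replicate 2, its lowest sample, *eater* was still called, at 3.68 (adjusted p = 0.0225 from limma). Leaving out mutant replicate 1, 2 or 3 or control replicate 3 ended the call (adjusted p = 0.121, 0.0708, 0.161 and 0.108). With 100 added before the log the log2 fold change was 2.18 (adjusted p = 0.0281 from limma). *eater* was not called by limma without trend (adjusted p = 0.137) or by the methods' t-test (adjusted p = 0.214).

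*eater* lies on chromosome arm 3R, the arm of *delg*, with 33 genes between them by RefSeq's list for Release 6 plus ISO1 MT. The ends of the deletion are not given in the sources used here, so that the number of *eater* copies is not known. The same deletion is in both groups, but the chromosome opposite it differs, with delg613 only in the mutant. The part of other differences on that chromosome in the *eater* signal was not tested.

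Peroxidasin, the product of *Pxn*, is an enzyme of the extracellular matrix that hemocytes make and that links collagen IV. Signals of its brighter probe set were 363, 332 and 610 in the mutant samples and 201, 153 and 111 in the controls, without overlap. *Pxn* rose by 1.47 (standard error 0.35, 95% interval 0.68 to 2.27, adjusted p = 0.0438 from limma), a mean of 435 ± 152 in the mutant against 155 ± 45.1 in the control (SD, n = 3 each). The second probe set was below the median of every array, and its groups overlapped. It gave 38.2, 1.88 and 3.17 in the mutant samples and 1.67, 36.8 and 28.1 in the controls (log2 fold change -0.98, 95% interval -4.52 to 2.57, adjusted p = 0.810 from limma). The mean of both probe sets gave a log2 fold change of 0.25 (adjusted p = 0.917), which ends the call. Leaving out mutant replicate 1, 2 or 3 or control replicate 3 also ended it (adjusted p = 0.109, 0.0903, 0.192 and 0.138). So did quantile normalization, 100 added before the log and a replicate block (adjusted p = 0.0574, 0.0557 and 0.122 from limma). *Pxn* was not called by limma without trend (adjusted p = 0.150) or by the methods' t-test (adjusted p = 0.162) either.

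Hml, hemolectin, is a large protein of the hemolymph clot, and its promoter is widely used to mark plasmatocytes. Signals of *Hml* were 727, 577 and 1030 in the mutant samples and 491, 181 and 235 in the controls. The groups did not overlap, with control replicate 1 close to mutant replicate 2. The log2 fold change was 1.46 (standard error 0.40, 95% interval 0.55 to 2.36, adjusted p = 0.0703 from limma), and *Hml* passed without control replicate 1, at 1.87 (adjusted p = 0.0165).

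He, Hemese, is a glycoprotein of the hemocyte surface. *He* gave 702, 213 and 803 in the mutant samples and 199, 119 and 162 in the controls. Mutant replicate 2 lay just above the highest control, far from the other mutant samples. The log2 fold change of 1.65 (standard error 0.50, 95% interval 0.50 to 2.80, adjusted p = 0.102 from limma) did not pass, and it became 2.26 (adjusted p = 0.0192) without mutant replicate 2.

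NimC1 is the phagocytosis receptor known as the P1 antigen of plasmatocytes. *NimC1* gave 218, 158 and 280 in the mutant samples and 154, 26.7 and 97.0 in the controls. The lowest mutant signal and the highest control signal were nearly the same, and control replicate 2 was below the median of its array. The log2 fold change was 1.53 (standard error 0.64, 95% interval 0.07 to 2.98, adjusted p = 0.234 from limma), and 0.80 (adjusted p = 0.280) without control replicate 2.

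Sr-CI is a scavenger receptor that binds bacteria. *Sr-CI* gave 103, 123 and 274 in the mutant samples and 84.5, 64.9 and 70.9 in the controls. The groups did not overlap, and mutant replicate 3 stood well above the other mutant samples. The log2 fold change of 1.05 (standard error 0.46, 95% interval -0.01 to 2.12, adjusted p = 0.265 from limma) did not pass.

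NimC2, a relative of NimC1 of the same Nimrod family, had the widest range of the 10 genes. Its signals were 21307, 24512 and 24872 in the mutant samples and 6710, 7.92 and 1881 in the controls. The mutant samples agreed within a factor of 1.17, whereas the controls spread over a factor of 847. The log2 fold change was 5.66 (standard error 2.08, 95% interval 0.90 to 10.42, adjusted p = 0.172 from limma), and control replicate 2, where the signal was below the median of the array, decides its size and its call. Without that array the log2 fold change was 2.73 (standard error 0.45, adjusted p = 0.00834 from limma), with a mean of 23564 in the mutant and 4296 in the other 2 controls. The gene table lists *NimC2* as overlapping its neighbour *rk*, a hormone receptor gene. The separate probe set of *rk* gave 309, 361 and 692 in the mutant samples and 103, 24.6 and 83.9 in the controls (2.83, adjusted p = 0.0267 from limma), and its part in the *NimC2* signal was not tested.

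Nplp2, a neuropeptide-like precursor also listed as IM7, went the other way. *Nplp2* gave 1296, 588 and 783 in the mutant samples and 4797, 39208 and 8278 in the controls. Every mutant sample was below every control, and the highest signal was that of control replicate 2, the array with the lowest signals of *NimC2* and *eater*. *Nplp2* fell by 3.78 on the log2 scale (standard error 0.69, 95% interval -5.36 to -2.21, adjusted p = 0.0163 from limma), with means of 889 ± 366 in the mutant and 17428 ± 18943 in the control (SD, n = 3 each). Without control replicate 2 the fold change was -2.90 (adjusted p = 0.00211), and leaving out mutant replicate 2 or 3 or control replicate 3 ended the call (adjusted p = 0.0746, 0.0840 and 0.0519).

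**Figure D2:**
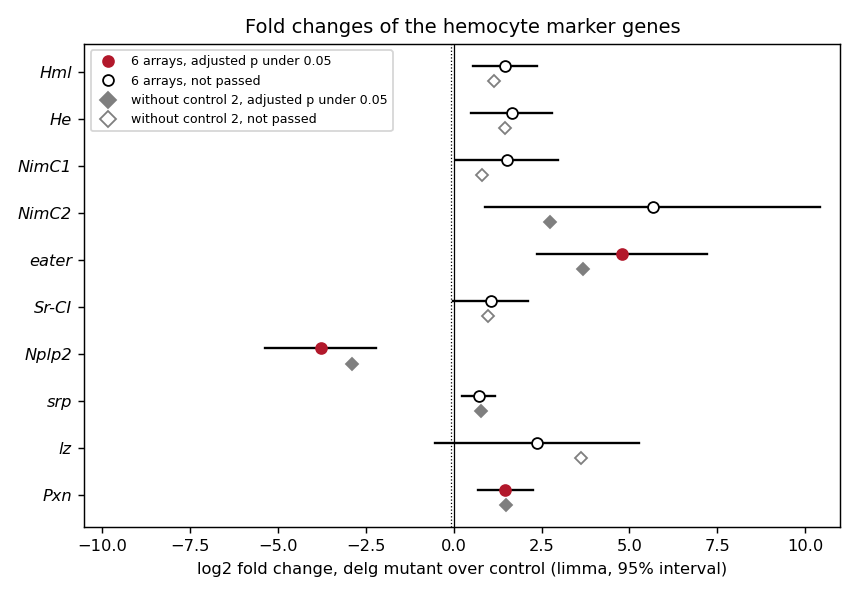
Log2 fold changes of the hemocyte marker genes, *delg* mutant over control, from limma on 6 arrays (circles, with 95% intervals) and without control replicate 2 (diamonds), with a dotted line at the median of all genes (-0.09). *eater*, *Pxn* and *Nplp2* are filled on 6 arrays, and *NimC2* and *srp* are filled as well once control replicate 2 is left out.

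The transcription factors of the list were srp and lz. *srp* gave 4344, 4359 and 6126 in the mutant samples and 2698, 3279 and 2986 in the controls. The spread within each group was small, and the groups did not overlap. The log2 fold change was 0.71 (standard error 0.20, 95% interval 0.25 to 1.17, adjusted p = 0.0789 from limma), and 0.78 (adjusted p = 0.0417) without control replicate 2. lz, a Runx factor, directs the crystal cell fate. *lz* was below the median of every array, at 37.3, 13.9 and 16.1 in the mutant samples and 0.78, 23.0 and 3.44 in the controls. The groups overlapped, and the interval of the difference was wide (log2 fold change 2.36, 95% interval -0.54 to 5.27, adjusted p = 0.374 from limma).

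Most of the marker genes also had a like order of the samples within each group. Among the mutant samples replicate 3 was the highest in 8 of the 10 genes, against 33.2% of all genes, and replicate 2 the lowest in 7, against 31.0%. Among the controls replicate 1 was the highest in 7 of the 10 genes, against 29.2% of all genes, and replicate 2 the lowest in 6, against 43.5%. The controls had the order replicate 1, 3 and 2 from high to low in 6 of the 10 genes (*Hml*, *He*, *NimC1*, *NimC2*, *eater* and *Sr-CI*), against 20.2% of all genes. The order was not particular to the marker genes. All 6 glue genes and the fat body genes *Fbp1*, *Fbp2* and *apolpp* had it too, whereas *Lsp2* and *ppl* did not. *Nplp2* had the opposite order of the controls, which 22.3% of all genes have. The 6 arrays are shared by all these counts, and the genes are not independent of each other.

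**Figure D3:**
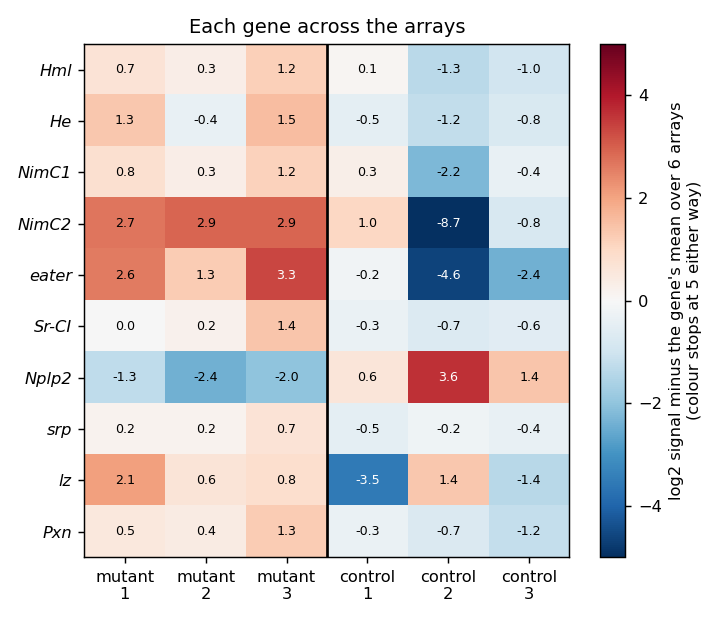
Log2 signal of each hemocyte marker gene minus its mean over the 6 arrays, with the mutant samples left of the controls. The rows of *Hml*, *He*, *NimC1*, *NimC2*, *eater* and *Sr-CI* are lowest in control replicate 2, where *Nplp2* is highest.

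By Pearson's r of log2 signals over the 6 arrays, which includes the difference between the genotypes and the distance of control replicate 2, the genes most like *Hml* among 5990 brighter genes were *Uvrag* (0.992), *CG1275* (0.985), *Hr78* (0.982), *sol* (0.974) and *rdog* (0.974). None of these 5 passed limma's test, with log2 fold changes of 0.56 to 1.09. *eater*, too dim to be ranked, had an r of 0.99 with *Hml*, *Pxn* 0.93, *NimC1* 0.92, *He* 0.88, *NimC2* and *Sr-CI* 0.86 each, *srp* 0.74, *lz* 0.17 and *Nplp2* -0.91. Among the 5990 genes *eater*, *Pxn* and *NimC1* would take ranks 2, 160 and 199, and *He*, *NimC2* and *Sr-CI* ranks 444, 579 and 609. *srp*, *lz* and *Nplp2* would take ranks 1158, 2495 and 5733. Many other genes rank between the marker genes, and whether the marker genes are more alike than other sets of genes was not tested. With the group means removed, r with *Hml* was 0.96 for *eater*, 0.86 for *NimC1*, 0.75 for *Pxn* and 0.71 for *NimC2*. It was 0.66 for *He*, 0.62 for *Sr-CI*, 0.03 for *srp*, -0.66 for *Nplp2* and -0.78 for *lz*. For *srp*, the marker gene with the highest mean log2 signal, the most alike genes were *CG11357* (0.989), *CG15745* (0.988), *nebu* (0.987), *nocte* (0.985) and *CG4887* (0.982). Of these *nocte* rose, by 0.94 (adjusted p = 0.0250 from limma). The glue genes *Sgs3* and *Sgs4* had an r of 0.67 and 0.68 with *Hml* and 0.22 and 0.23 with *srp*.

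*He* and the Nimrod genes *NimC1* and *NimC2* lie close together on chromosome arm 2L, in a row with the other Nimrod genes. The products of the Nimrod genes share a cysteine-rich motif. The gene table gives the order *NimA*, *NimB1* to *NimB5*, *He*, *NimC1*, *NimC2*, *NimC3* and *NimC4*, without another gene between *NimA* and *NimC1*. *He*, *NimC1* and *NimC2*, none of which passed on 6 arrays, had log2 fold changes of 1.65, 1.53 and 5.66. The 8 other genes of the row had -1.12 to 1.02. Without control replicate 2 *He*, *NimC1* and *NimC2* had 1.46, 0.80 and 2.73, with *NimC1* close to *NimB4* (0.74) and *NimB1* (0.61). *NimB5*, which overlaps *He* in the table, had -0.34 (95% interval -0.87 to 0.19), and *Cyp28a5*, the gene between *NimC1* and *NimC2*, had 0.13 (95% interval -0.44 to 0.70). Among the others *NimB4*, whose product is secreted, rose, at 3553, 4195 and 3211 in the mutant samples and 2491, 1691 and 1898 in the controls (0.86, standard error 0.21, adjusted p = 0.0467 from limma). Leaving out mutant replicate 1, 2 or 3 or control replicate 3 ended the call of *NimB4* (adjusted p up to 0.168).

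**Figure D4:**
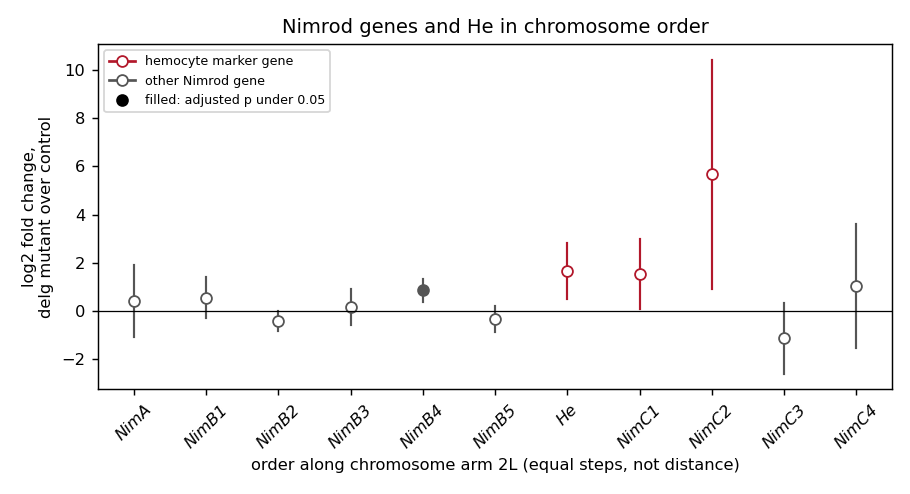
Log2 fold change (*delg* mutant over control, with 95% intervals from limma) of the Nimrod genes and *He* in their order along chromosome arm 2L. *He*, *NimC1* and *NimC2* follow each other above 0, and the only filled point, for an adjusted p under 0.05, is *NimB4* (0.86).

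Other genes known from hemocytes were read from lists written for this purpose. With lists this short a count of 1 or 2 calls says little about a list. Among 15 phagocytosis receptors and their relatives 1 rose, *NimB4*, and none fell (4.45% and 3.75% of all genes), and the median log2 fold change was 0.09. The receptors for apoptotic cells crq and drpr had log2 fold changes of 0.09 (95% interval -0.42 to 0.61) and -0.20 (95% interval -0.65 to 0.26). *Sr-CII*, *Sr-CIII* and *Sr-CIV*, relatives of *Sr-CI*, had -1.96, -0.24 and 0.32, with overlapping groups and the first pair below the median of every array.

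Of 6 genes of crystal cells and melanisation 2 rose and none fell (4.45% and 3.75% of all genes), and the median was 0.11. The prophenoloxidase genes *PPO1* and *PPO2*, which mark crystal cells, gave 212, 279 and 298 and 325, 556 and 580 in the mutant samples, against 1056, 172 and 504 and 1474, 390 and 768 in the controls. In both genes control replicate 1 was the highest and the groups overlapped (log2 fold change -0.79 for *PPO1*, adjusted p = 0.532, and -0.69 for *PPO2*, adjusted p = 0.492, from limma). Without control replicate 2 *PPO1* fell by 1.49 (adjusted p = 0.0324), while *Sp7*, *Hayan* and *yellow-f* were called higher (2.03 for *yellow-f*, adjusted p = 0.00488). *Sp7* and *Hayan*, the genes called on 6 arrays, encode serine proteases of the melanisation cascade. *Sp7* gave 9564, 10120 and 8441 in the mutant samples and 3177, 3336 and 2437 in the controls (1.66, standard error 0.19, adjusted p = 0.00225 from limma), and was called without any one array. *Hayan* had 2969, 3192 and 3042 in the mutant samples and 1503, 1987 and 1422 in the controls (0.92, adjusted p = 0.0253). The call of *Hayan* held only when control replicate 2 was the array left out (adjusted p up to 0.119 without others).

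Of 6 lamellocyte genes 1 rose and none fell (4.45% and 3.75% of all genes). It was *msn*, a kinase gene used as a lamellocyte reporter but active in many tissues. *msn* gave 763, 790 and 823 in the mutant samples and 317, 353 and 350 in the controls (1.22, standard error 0.19, adjusted p = 0.00910 from limma), and the call was lost without mutant replicate 3 (adjusted p = 0.0687). *atilla*, the usual surface marker of lamellocytes, had 134, 34.3 and 60.7 in the mutant samples and 109, 141 and 29.4 in the controls, and *PPO3*, the lamellocyte prophenoloxidase, was below the median of every array. The groups overlapped in both.

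No gene passed among 11 measured of 15 transcription factors and signalling genes of hemocytes (8.20% of all genes passed), and the median was 0.24. At an unadjusted p under 0.05 limma gave 0 genes (23.0% of all genes) and the methods' t-test 1, *Pvf3* (20.7% of all genes). The smallest p from limma was also that of *Pvf3*, a ligand of the hemocyte receptor Pvr, at 98.8, 66.7 and 93.7 in the mutant samples and 47.5, 42.2 and 35.0 in the controls (1.05, adjusted p = 0.288 from limma). The GATA cofactor gene *ush* had a log2 fold change of 0.11 (95% interval -0.39 to 0.61).

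The listed matrix and clotting proteins, which hemocytes and fat body both make, lay mostly below 0. The list leaves out *Hml* and *Pxn*, of the clot and the matrix, which are marker genes here and had 1.46 and 1.47. Of 11 genes 2 fell and none rose (3.75% and 4.45% of all genes), and the median was -0.65, against -0.09 for all genes. *Tig*, tiggrin of the matrix, gave 5132, 6897 and 5757 in the mutant samples and 20938, 21302 and 19377 in the controls (-1.80, standard error 0.19, adjusted p = 0.00151 from limma), and was called without any one array. *vkg*, a collagen IV chain, had 4168, 4250 and 4893 in the mutant samples and 9165, 41821 and 16835 in the controls (-2.07, standard error 0.47, adjusted p = 0.0389). The other chain, *Col4a1*, had 4131, 5296 and 4170 in the mutant samples and 8511, 36788 and 12715 in the controls (-1.82, adjusted p = 0.0615). Both collagen genes had the order of the controls seen in *Nplp2*, with replicate 2 the highest and replicate 1 the lowest. The call of *vkg* ended when mutant replicate 1, 2 or 3 or control replicate 3 was left out (adjusted p up to 0.134), and without control replicate 2 *Col4a1* was called, at -1.21 (adjusted p = 0.0105).

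**Figure D5:**
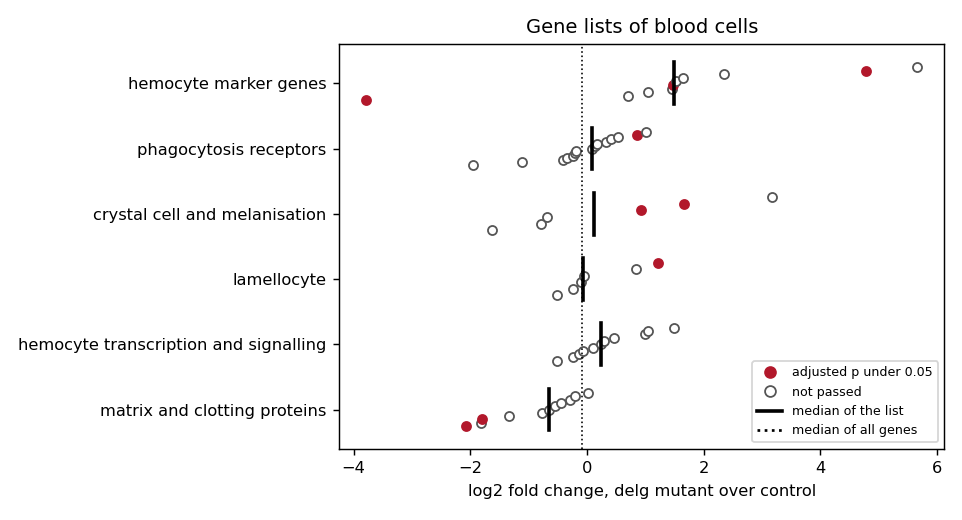
Log2 fold change (*delg* mutant over control) of each gene in 6 lists of blood cell genes, with the median of each list as a bar and that of all genes as a dotted line (-0.09). The hemocyte marker genes have a median of 1.50, the matrix and clotting proteins of -0.65, and the other lists lie between -0.07 and 0.24. *Hml* and *Pxn*, of the clot and the matrix, are counted only with the marker genes.

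Without control replicate 2, the array nearly without glue gene signal, the 10 marker genes had a median of 1.31 (-0.13 for all genes), and 4 rose (*NimC2*, *eater*, *srp* and *Pxn*) and 1 fell (*Nplp2*). Over all genes, 5.96% rose and 5.28% fell in that comparison.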

How the data were processed

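RNA of dissected larval fat bodies was labelled with biotin after 2 rounds of cDNA synthesis and hybridised to Affymetrix Drosophila Genome 2.0 arrays, with 3 *delg* mutant and 3 control samples. The deposited intensities are linear MAS5 signals from GCOS 1.4, per the submitters' processing notes, scaled by the authors to a trimmed mean of 500 (2% cut from each end, checked on the files), from 0.12 to 89161. Detection calls were not used here. The study names GeneSpring GX for evaluation and an equal-variance t-test, called the methods' t-test here.

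Log2 signals, with no filter or added constant, were compared in limma 3.58.1 (R 4.3.3, lmFit, eBayes with trend), adjusted over 18769 probe sets after 183 control probe sets were left out. Symbols are those of the platform annotation, renewed through Entrez numbers: 13647 probe sets have 1 symbol, 402 several and 4720 none here. Where a gene has several probe sets, the one brightest on average (log2) was taken. A listed gene without a named probe set was not analysed.

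The marker genes and the other lists were chosen with earlier results of these data known. By rule the text names all 10 marker genes, the genes of other lists past the threshold, or else that with the smallest p, and the 5 genes most like *Hml* and the brightest marker gene. Values of further genes were chosen after they were seen. The number of arrays limits the precision. Alternatives were centring each array, quantile normalization, adding 100 before the log, the brighter probe sets, a replicate block, averaged probe sets per gene, no trend, array weights, the methods' t-test and leaving out each array. No sequence of these genes was used here.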

Additional observations from a re-analysis of the deposited data

How the results depend on the processing

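Each of the 10 marker genes kept the sign of its fold change under every alternative it could be run in. Of the values of single genes under the alternatives, 119 stayed on the same side of the threshold, 22 lost a call and 8 gained one. The numbers of marker genes called higher and lower were 2 and 1. The number higher was 1 with quantile normalization, with 100 added before the log, with the replicate block and with averaged probe sets per gene. It was 0 without trend and by the methods' t-test after adjustment (5 genes by that test before it), and 5 with array weights. The number lower was 0 with the replicate block, without trend and by the methods' t-test. Leaving out each array gave 0 to 4 higher and 0 to 1 lower, and medians of 1.27 to 1.75. Over all probe sets 1239 were called, 687 with the replicate block, 229 without trend, 2138 with array weights, 323 by the methods' t-test and 378 to 1668 without each array. The median of the 10 genes, 1.50, was 0.91 with 100 added before the log, 1.54 with quantile normalization and 1.65 with centred arrays. Centring moved the median of all genes to 0.06 and the share of higher calls among all genes from 54.3 to 70.5%, and took *Hml* past the threshold (adjusted p = 0.0461 from limma). Deviations of same-numbered samples from their group means had correlations of -0.04, -0.07 and -0.01. Pairs with different numbers were not compared, so these values cannot show whether same-numbered samples shared a batch. Signals of *lz* and of the second *Pxn* probe set on every array, of *eater*, *NimC1* and *NimC2* in control replicate 2 and of *eater* and *Sr-CI* in control replicate 3 lay below the array median, and low signals limit these folds. Among genes of the other lists, beside the losses without single arrays, *NimB4* and *vkg* were not called with 100 added before the log (adjusted p = 0.0507 and 0.0506 from limma), and *vkg* not with centred arrays (0.0557). With the replicate block *NimB4*, *vkg* and *Hayan* were not called (0.113, 0.0571 and 0.0657), nor by the methods' t-test (0.146, 0.226 and 0.0845). Without trend *NimB4*, *vkg*, *Hayan*, *Sp7* and *msn* were not called (0.230, 0.171, 0.182, 0.0607 and 0.0882). *lz* could not be fitted among the brighter probe sets.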
